A study of Mus musculus with 6 samples.

Results

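De novo lipogenesis, the making of fatty acids from acetyl-CoA, was followed in the aortas of mice through 10 genes: the enzymes Acly, Acaca, Fasn, Elovl6, Scd1, Me1 and Pcx, the nuclear regulator Thrsp, and the transcription factors Srebf1 and Mlxipl. The genes were given as a list, and each was represented by the probe set that names it alone and has the highest mean over the 6 arrays, which all 10 of 10 had, out of 19752 genes that the annotation names alone on at least 1 probe set. The genes were selected on their differences between the groups in earlier results of the same arrays, beside their known roles, so the genotype differences below are descriptions of these 6 arrays.

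The comparison was of DKO mice (apoe-/- adora1-/-, n = 3), which lack the adenosine A1 receptor as well as apolipoprotein E, with ApoE-KO mice (apoe-/-, n = 3), which lack apolipoprotein E alone and are prone to atherosclerosis. All mice were of the C57BL/6 strain and 20 weeks old, with 1 array of aortic RNA per sample, and the labels name no treatment. The series text names mice lacking Adora1 as the comparison group, whereas every sample label of that group names Apoe, and the sample labels were followed. Both groups thus share the loss of Apoe, no array of mice with an intact Apoe was among the 6, and Adora1 itself is not analysed here. The labels do not say whether a sample is 1 animal or a pool, so the spread between the arrays of a group may be in part technical.

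In fat cells and liver, citrate exported from mitochondria is split by ATP citrate lyase (Acly) into acetyl-CoA, carboxylated to malonyl-CoA by acetyl-CoA carboxylase (Acaca), and built into palmitate by fatty acid synthase (Fasn). Elovl6 lengthens palmitate and Scd1 desaturates the products, while malic enzyme (Me1) supplies NADPH and pyruvate carboxylase (Pcx) replenishes the oxaloacetate that citrate export draws on. Insulin acts on the programme through SREBP1 (Srebf1) and glucose through ChREBP (Mlxipl), and thyroid hormone and both factors induce Thrsp, also known as Spot 14. The aorta is sheathed in perivascular fat, whose cells can be a source of such transcripts in whole-vessel RNA.

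The promoters of the 3 genes with the largest genotype differences are shown as a description of their sequence. A shared promoter cause was not tested. Each line is the RefSeq window of assembly GRCm38.p6 from 250 bases before to 50 bases after the gene's start, on the gene's strand, and capitals mark the letters CCAAT, the core bound by NF-Y, or their reverse complement. The windows are chr11:120824498-120824797 (minus strand) for Fasn, chr7:97417501-97417800 (minus strand) for Thrsp and chr19:4510222-4510521 (plus strand) for Pcx. Pcx has another window, chr19:4594069-4594368 (plus strand), which is not shown and held CCAAT 1 time, 35 bases after that start.
Fasn: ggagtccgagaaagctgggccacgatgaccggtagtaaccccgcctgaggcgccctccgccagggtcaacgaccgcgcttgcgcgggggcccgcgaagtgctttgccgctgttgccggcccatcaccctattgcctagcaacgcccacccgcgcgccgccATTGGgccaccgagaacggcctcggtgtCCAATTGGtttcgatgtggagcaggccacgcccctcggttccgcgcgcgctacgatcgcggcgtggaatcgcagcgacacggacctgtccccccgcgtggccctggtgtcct
Thrsp: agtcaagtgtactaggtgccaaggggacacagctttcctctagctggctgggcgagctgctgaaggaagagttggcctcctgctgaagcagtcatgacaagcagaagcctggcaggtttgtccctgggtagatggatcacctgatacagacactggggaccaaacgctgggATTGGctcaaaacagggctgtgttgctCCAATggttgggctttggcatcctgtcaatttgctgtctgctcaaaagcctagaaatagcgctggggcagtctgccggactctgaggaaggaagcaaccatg
Pcx: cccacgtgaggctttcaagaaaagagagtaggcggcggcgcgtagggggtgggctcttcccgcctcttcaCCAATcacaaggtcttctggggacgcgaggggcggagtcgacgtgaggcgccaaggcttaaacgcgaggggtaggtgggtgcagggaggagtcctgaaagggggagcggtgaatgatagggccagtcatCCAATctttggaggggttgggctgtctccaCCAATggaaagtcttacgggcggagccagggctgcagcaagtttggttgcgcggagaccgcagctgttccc

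In these windows CCAAT was found, on either strand, 3 times in Fasn (starting at -90, -62 and -59, the last 2 overlapping), 2 times in Thrsp (at -79 and -52) and 3 times in Pcx (at -180, -51 and -21), counted from the gene's start. Of all 32851 promoter windows in the RefSeq table, 37.4% held CCAAT at least 1 time and 11.7% at least 2 times. Over the lipogenic genes with an entry, 9 of 14 windows held CCAAT, to be read against that 37.4%. Some genes have several starts, and counted by gene 7 of 9 had it in at least 1 window. A gene with several windows has more chances of a match, and no share by gene over all genes was computed. The windows of Acaca and Elovl6 lacked it. Acly had it 37 bases after the start, and Me1 had it at -208 in 1 window but not in its other. Any relation of CCAAT to the genotype differences was not tested. The sterol element TCACNCCAC, an SREBP site, was in 1 of the 14 windows, of Mlxipl, against 1.24% of all windows. The E-box CACGTG was in the Pcx window above and in 1 Mlxipl window, against 7.15% of all. The exact paired E-box of the carbohydrate response element was in 0 of the 14 windows and in 0% of all. The Sp1 box GGGCGG was in 6 of the 14 windows, against 35.7% of all. It was in the Pcx window above but not in those of Fasn and Thrsp. Every motif was searched on both strands. Such matches describe letters in a short window only.

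All 10 lipogenic genes had a lower group mean in DKO than in ApoE-KO aortas, where 50.7% of the 25254 probe sets did, and their median difference was -0.49 on the log2 scale, against -0.0024 over all probe sets. Differences ranged from -1.32 for Thrsp to -0.01 for Me1. Thrsp, Fasn and Pcx were lower by more than 1, and the others ran without a clear break from Elovl6 at -0.62 to Me1. In 7 of the 10 the level was lower in DKO in each of the 3 same-numbered pairs of arrays, against 19.1% of all probe sets.

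Thrsp, the hormone- and diet-responsive regulator of lipogenic enzymes, had log2 levels of 8.21, 8.72 and 8.39 in DKO replicates 1 to 3, against 10.001, 9.85 and 9.43 in ApoE-KO replicates 1 to 3. Every DKO array was below every ApoE-KO array. The means were 8.44 ± 0.26 in DKO and 9.76 ± 0.29 in ApoE-KO (SD, n = 3 each), an intensity ratio of 0.3997, and among the 19752 genes Thrsp was the 3rd lowest by difference.

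Fasn, the synthase itself, read 10.42, 11.31 and 10.90 in DKO, against 12.18, 12.05 and 11.80 in ApoE-KO. The groups did not overlap, and DKO replicate 1 was the lowest array. The means were 10.88 ± 0.45 in DKO and 12.01 ± 0.19 in ApoE-KO (SD, n = 3 each), a difference of -1.13 and a ratio of 0.457. By replicate number the differences were -1.76, -0.73 and -0.90, so the pair numbered 1 had the widest gap, and without DKO replicate 1 the difference was -0.90.

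Pcx, which carboxylates pyruvate in mitochondria, read 8.81, 9.31 and 8.92 in DKO, against 10.03, 10.36 and 9.87 in ApoE-KO. The means were 9.01 ± 0.26 in DKO and 10.09 ± 0.25 in ApoE-KO (SD, n = 3 each), a difference of -1.07 and a ratio of 0.475. Its pairs were the most even of the 3 genes, at -1.21, -1.06 and -0.95, and no array of one group reached the range of the other.

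**Figure D1:**
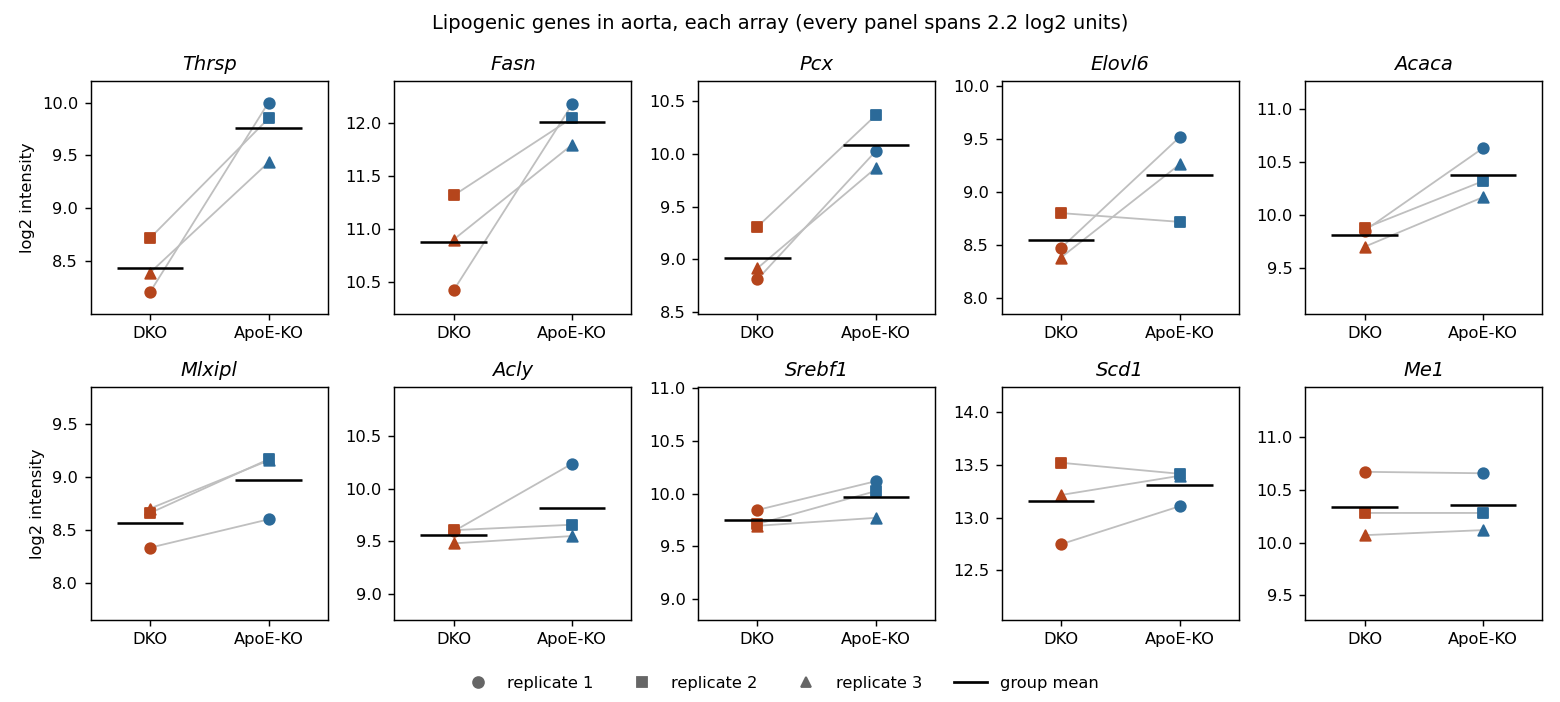
Log2 intensity (vertical axis, each panel spanning the same range) of the 10 lipogenic genes on each array, with DKO left and ApoE-KO right, symbols for replicate numbers, grey lines joining equal numbers and black bars for group means. The groups are apart for Thrsp, Fasn, Pcx and Acaca, and for Me1 the lines are nearly flat, at -0.01 on average.

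Acaca, which makes malonyl-CoA, the building block for the synthase, read 9.85, 9.88 and 9.70 in DKO, against 10.64, 10.32 and 10.17 in ApoE-KO, a difference of -0.57. The groups did not overlap, and the 3 DKO arrays lay close together. A second probe set naming Acaca alone gave -0.59, with 8.61, 8.78 and 8.62 in DKO against 9.47, 9.29 and 9.04 in ApoE-KO. Acly, the step before it, read 9.60, 9.61 and 9.48 in DKO, against 10.24, 9.66 and 9.55 in ApoE-KO. Only ApoE-KO replicate 1 stood clear of the rest for Acly, and the difference of -0.25 was -0.04 without that array.

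Elovl6, the elongase of palmitate, read 8.47, 8.80 and 8.38 in DKO, against 9.52, 8.72 and 9.26 in ApoE-KO. The difference of -0.62 came from the pairs numbered 1 and 3 (-1.05 and -0.88), while the pair numbered 2 gave 0.08. Scd1, the desaturase, read 12.75, 13.52 and 13.21 in DKO, against 13.11, 13.41 and 13.39 in ApoE-KO. Its groups overlapped, its difference was -0.15 (95% interval -0.59 to 0.30), and without DKO replicate 1 it was 0.06.

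Me1, the NADPH-producing malic enzyme, read 10.67, 10.28 and 10.07 in DKO, against 10.66, 10.28 and 10.12 in ApoE-KO. Same-numbered arrays were within 0.05 of each other, although the numbers themselves spanned a wider range. The interval of its difference ran from -0.46 to 0.44 without pairing and from -0.14 to 0.12 with the replicate number as a block, and its second probe set gave 0.05.

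Of the transcription factors, Mlxipl (ChREBP) read 8.33, 8.66 and 8.70 in DKO, against 8.60, 9.17 and 9.15 in ApoE-KO, a difference of -0.41. The 2 groups overlapped because ApoE-KO replicate 1 was low, but each pair was lower in DKO, at -0.27, -0.51 and -0.46. Srebf1 read 9.84, 9.71 and 9.70 in DKO, against 10.12, 10.02 and 9.77 in ApoE-KO, a difference of -0.22 with pairs at -0.27, -0.31 and -0.08. The genes of both factors therefore differed less than Fasn and Thrsp did, and no test of that contrast was made.

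In the limma fit across all probe sets without pairing, 0 of the 10 passed an adjusted p of 0.05, as did 0% of all probe sets, with adjusted p from 0.368 for Thrsp to 0.995 for Me1. At an unadjusted p under 0.05 the fit had 5 of the 10, all lower in DKO, against 5.62% of all probe sets in either direction and 2.68% in that direction. Arrays of equal number deviated together from their group means, and with the replicate number as a block Pcx and Thrsp passed (limma, adjusted p = 0.0166 and 0.0467), where 0.174% of all probe sets passed and 0.0792% passed as lower in DKO. At an unadjusted p under 0.05 with the block, 7 of the 10 were lower, against 6.1% of all probe sets. Acaca, Fasn and Mlxipl were next, at adjusted p = 0.0545, 0.0721 and 0.0827, and the others ran from 0.2 for Srebf1 to 0.942 for Me1. The members were listed with this contrast known, so these counts support nothing about them. With the block, leaving out both replicate 1 arrays gave 5 members called among 415 probe sets, and leaving out both replicate 2 arrays gave 0.

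**Figure D2:**
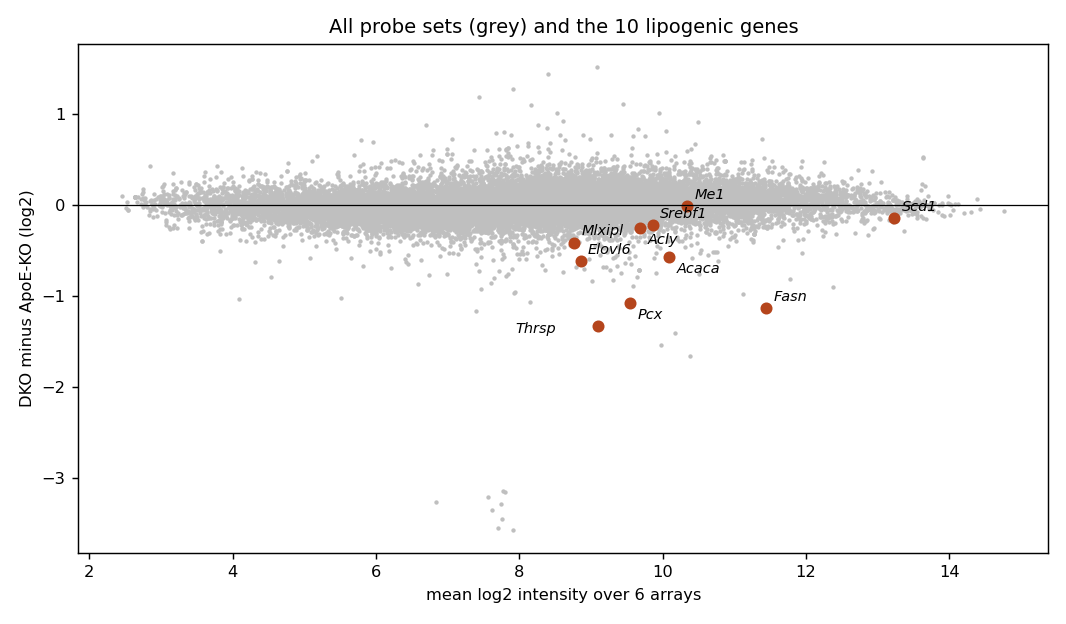
Difference DKO minus ApoE-KO (vertical axis, log2) against mean log2 intensity over the 6 arrays (horizontal axis) for all 25254 probe sets in grey, with the 10 lipogenic genes in red. Thrsp, Fasn and Pcx lie below -1, and Me1 and Scd1 lie near 0.

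The groups did not overlap for 4 of the 10 genes (Thrsp, Fasn, Pcx and Acaca), each lower on every DKO array, against 12% of all probe sets in either direction and 6.47% in that direction. On the arrays, DKO replicate 1 had the lowest level of Thrsp, Fasn, Pcx, Scd1 and Mlxipl. ApoE-KO replicate 1 had the highest level of Thrsp, Fasn, Acaca, Acly, Elovl6 and Srebf1. The mean over the 10 genes was 9.69, 9.98 and 9.74 in DKO, against 10.51, 10.38 and 10.25 in ApoE-KO. Across the 6 arrays, each gene's correlation with the mean standardized profile of the other 9 was 0.98 for Thrsp, 0.96 for Acaca, 0.94 for Fasn and 0.92 for Pcx, and 0.20 for Scd1 and 0.07 for Me1. These correlations contain the genotype difference and are descriptions over 6 arrays.

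Adipocyte marker genes were also lower in DKO, in 13 of 14 measured members of a list, with a median difference of -0.34, which was -0.15 without DKO replicate 1 and -0.54 without DKO replicate 2. The list's mean level was 9.31, 10.11 and 9.70 in DKO, against 9.79, 10.35 and 10.24 in ApoE-KO, so the groups overlapped. Each same-numbered pair was still lower in DKO, by -0.48, -0.24 and -0.54. In 10 of the 14 markers all 3 pairs were lower, against 19.1% of all probe sets. At an unadjusted p under 0.05 (limma with the block) 11 of the 14 were lower, against 6.1% of all probe sets, and 1 was higher. Adipoq read 9.04, 9.78 and 9.16 in DKO, against 9.44, 10.33 and 9.89 in ApoE-KO, with overlap. Differences were -0.56 for Adipoq (adiponectin), -0.35 for Lipe (hormone-sensitive lipase), -0.30 for Fabp4, a fatty acid carrier, -0.19 for Plin1, a coat protein of lipid droplets, and 0.36 for Lep (leptin). The list's lowest was Retn (resistin), at -1.53, and with the block Retn and Cidec passed as lower. In bulk RNA, fewer fat cells and less of a transcript per fat cell cannot be told apart.

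Set against the mean of these 14 markers on the same array, the 10 lipogenic genes parted: 5 were lower and 5 higher in DKO, with a median of -0.07. The 14 were Adipoq, Plin1, Cidec, Fabp4, Lipe, Pnpla2, Lep, Retn, Lpl, Cd36, Aqp7, Pck1, Tmem120b and Gpd1. Their mean differed by -0.42, with single markers from Retn at -1.53 to Lep at 0.36. Retn and Gpd1 are also among the 8 genes most like the lipogenic profile, given below. The split is specific to this choice of markers. Thrsp was lower by this measure at -0.90, Fasn at -0.71 and Pcx at -0.65, and for each of them the groups again did not overlap. For Scd1 the groups were apart in the other direction. Because the marker mean was lower in DKO, subtracting it raised the difference of every gene by the same amount. No share of all probe sets without overlap on this scale is given here, so these separations are descriptions and single out no gene. Relative to the markers, Fasn stood at 1.11, 1.20 and 1.20 in DKO, against 2.38, 1.70 and 1.56 in ApoE-KO. Mlxipl came to 0.01, Acaca to -0.15 and Elovl6 to -0.19. Scd1 was higher in DKO at 0.28, with 3.44, 3.40 and 3.51 in DKO, against 3.31, 3.06 and 3.15 in ApoE-KO, and Me1 was higher at 0.41. Scd1 and Mlxipl were the members that followed the markers most closely over the 6 arrays (r = 0.92 and 0.90), whereas Acly, Srebf1 and Me1 did not (r = -0.07, 0.08 and -0.57). Pcx, Fasn and Thrsp came between, at r = 0.76, 0.74 and 0.63, and so did Elovl6 and Acaca, at 0.36 each.

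**Figure D3:**
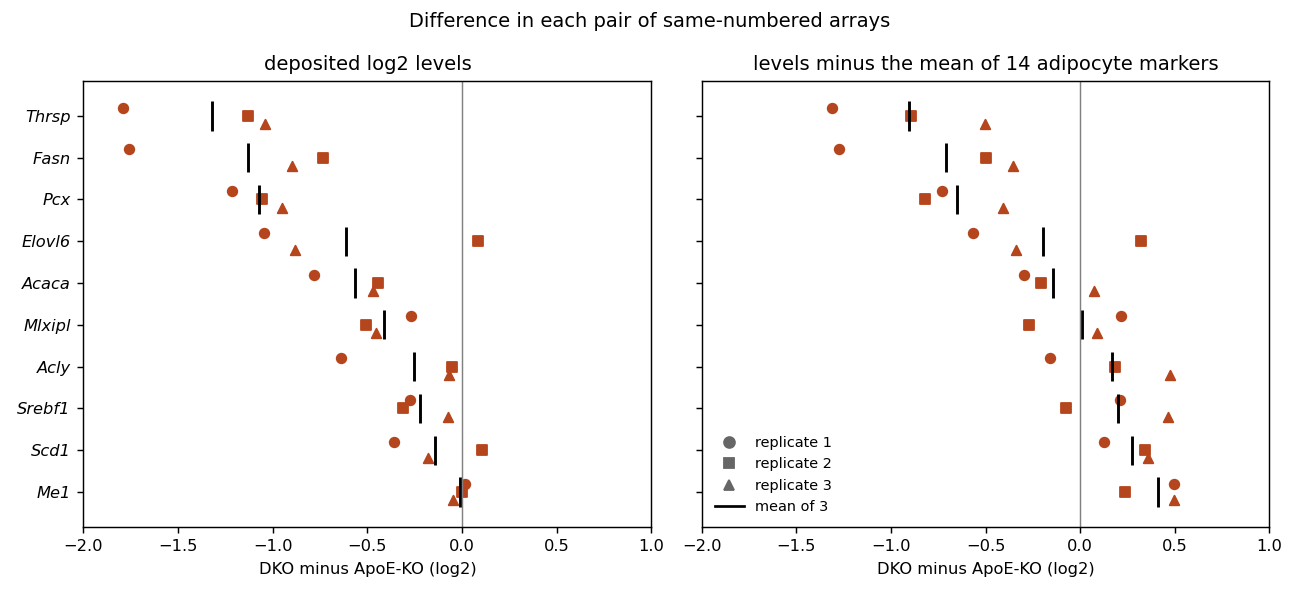
Difference DKO minus ApoE-KO (horizontal axis, log2) for each of the 10 genes in each pair of same-numbered arrays, with the mean of the 3 as a bar, on the left from the deposited levels and on the right after subtracting the mean of 14 adipocyte markers on each array. On the right Thrsp, Fasn and Pcx stay left of 0 in all 3 pairs, and Scd1 and Me1 lie right of 0.

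Markers of other cell types were read on the same arrays. Smooth muscle markers, which define the tissue, had means of 12.47 ± 0.09 in DKO and 12.41 ± 0.13 in ApoE-KO (SD, n = 3 each), with 6 of 8 higher in DKO and a median difference of 0.06. Acta2, smooth muscle actin, differed by 0.00 and Myh11, smooth muscle myosin, by 0.10, and the list ran from Des (desmin) at -0.18 to Lmod1 (leiomodin) at 0.26. Endothelium markers had a mean of 10.30 in both groups, but their members went both ways: 6 of 8 were higher in DKO, with a median of 0.09, among them Pecam1 at 0.16, Cdh5 at 0.05 and Tek, the highest, at 0.21. The other 2 were lower, Emcn at -0.45 and Kdr at -0.29.

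Macrophage markers were at 8.83, 9.84 and 9.53 in DKO, against 9.45, 9.59 and 9.36 in ApoE-KO, so DKO replicate 1, the lowest array for Fasn, was low in them as well. Of these markers 4 of 8 were lower, from Itgam at -0.28 to Adgre1 at 0.04, with Cd68 at -0.06 and Csf1r at 0.03. The median of -0.03 was 0.21 without DKO replicate 1 and -0.25 without DKO replicate 2.

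Of the brown fat markers 6 of 10 were lower in DKO, from Elovl3 at -0.76 to Prdm16 at 0.26. Ucp1, the uncoupling protein, was at -0.58, Cox8b at -0.37 and Cidea at -0.13, whereas Ppargc1a, a coactivator, was at 0.17 and Dio2, the deiodinase that activates thyroid hormone, at 0.15. In the pair numbered 2 the differences of Ucp1, Cox8b and Cidea had the opposite sign, at 0.24, 0.23 and 0.25. The list median of -0.11 was -0.32 without DKO replicate 2 and 0.0028 without DKO replicate 3.

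Liver markers, for the other main lipogenic tissue, were lower in 8 of 9, with a median of -0.08. Their list means did not overlap, at 6.96, 7.07 and 7.01 in DKO, against 7.12, 7.38 and 7.27 in ApoE-KO, a difference of -0.24. Cyp2e1, which is also made in fat, was the lowest at -1.65, and the other 8 lay between -0.13 (Fga) and 0.01 (Alb), with Apoa1 at -0.07. The gap between the list means therefore came largely from Cyp2e1. The other 8 were low on these arrays, with ApoE-KO means from 5.82 (Alb) to 7.96 (Apoa1), below the array medians of 8.01 to 8.02. Lung epithelium markers such as Sftpc and Scgb1a1 were high on both replicate 3 arrays, with list means of 9.68 in DKO replicate 3 and 10.31 in ApoE-KO replicate 3, against 6.72 to 6.79 on the other 4 arrays. Their differences ran from Scgb1a1 at -0.40 to Scgb3a2 at 0.02, with Sftpc at -0.21. Without both replicate 3 arrays the median lipogenic difference was -0.44 and 9 of 10 were lower. The part of these cells in the lipogenic differences was not tested.

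**Figure D4:**
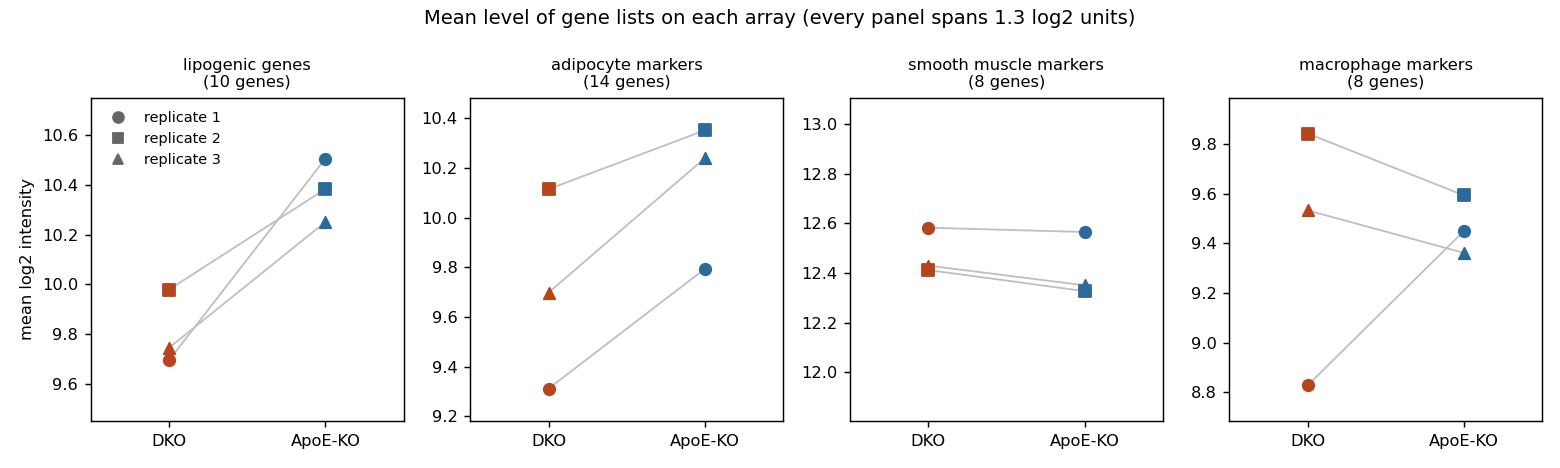
Mean log2 intensity (vertical axis, same span in each panel) of the lipogenic genes, adipocyte, smooth muscle and macrophage markers on each array, DKO left and ApoE-KO right, with grey lines joining equal replicate numbers. The lipogenic means do not overlap between groups and the adipocyte means do, but both are lower in DKO in all 3 same-numbered pairs. DKO replicate 1 is lowest for macrophage markers at 8.83.

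The steps around the pathway were described with lists of further genes, and of their genes 0 were called in the unpaired fit and 0 with the block. Genes that supply substrate and NADPH were lower in DKO in 13 of 20, with a median of -0.10, which was -0.025 without ApoE-KO replicate 1. Slc25a1, the citrate carrier, read 10.61, 10.68 and 10.52 in DKO, against 10.96, 10.97 and 10.75 in ApoE-KO, a difference of -0.29 with no overlap. Acss2, which makes acetyl-CoA from acetate, differed by -0.31 and Slc2a4, the insulin-responsive glucose transporter, by -0.18. The NADPH-producing Idh1 and Pgd were at -0.01 and -0.10, and the extremes were Aacs, the acetoacetyl-CoA synthetase, at -0.35 and Ldhb, a lactate dehydrogenase subunit, at 0.27.

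Among genes of elongation and desaturation 11 of 18 were lower, with a median of -0.01. Elovl3, an elongase of brown fat, was the lowest at -0.76, and Elovl5 and Scd2 were at -0.22 and -0.21. The desaturases of polyunsaturated fatty acids were level, with Fads1 at 0.00 (95% interval -0.17 to 0.17) and Fads2 at 0.06. Elovl7 was the highest, at 0.32.

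Triglyceride assembly was lower in 18 of 20 genes, with a median of -0.10. Dgat2, which completes triglycerides, differed by -0.58 and Agpat2, the acyltransferase of fat cells, by -0.41, with Agpat2 at 10.82, 11.37 and 11.00 in DKO, against 11.41, 11.58 and 11.42 in ApoE-KO. Dgat1, which catalyses the same step as Dgat2, was at -0.02, and Gpam and Lpin1 at -0.14 and -0.06. The highest was Acsl4, at 0.15.

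Upstream control genes were lower in 16 of 33, with a median of 0.00. Pparg, the master factor of fat cells, was the lowest at -0.36, Nr1h3, the LXR alpha gene that drives Srebf1, was at -0.24, and Insig1, which holds SREBP in the endoplasmic reticulum, at -0.17. Scap, the SREBP escort, was at -0.12, Usf1 at -0.08, Mlx, the partner of ChREBP, at 0.04, Prkaa2, a catalytic subunit of AMP-activated kinase, at 0.18, and Thra, a thyroid hormone receptor, was the highest at 0.24. Insig1 was below the ApoE-KO range on every DKO array, at 9.84, 9.81 and 9.85 in DKO against 9.86, 10.15 and 10.03 in ApoE-KO, by a narrow margin.

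Close relatives of the lipogenic genes had a median of -0.01, and 10 of 17 were lower. Acacb, the mitochondrial acetyl-CoA carboxylase, was at -0.23 beside Acaca at -0.57. Mid1ip1, the relative of Thrsp, was at -0.06 beside -1.32, Me2 and Me3 at 0.05 and 0.13, Srebf2 at -0.09 and Mlxip at 0.00. None of these differences between relatives was tested.

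Fatty acid oxidation genes were lower in 6 of 21, with a median of 0.02. Acadl, Acadm, Hadha and Mlycd, which removes malonyl-CoA, were at 0.01, 0.03, 0.04 and -0.04. The highest was Cpt1a, the carnitine palmitoyltransferase that malonyl-CoA inhibits, at 11.74, 11.78 and 11.49 in DKO, against 11.01, 11.15 and 11.28 in ApoE-KO. Each DKO array was above each ApoE-KO array, a difference of 0.52 (limma, adjusted p = 0.75 without and 0.0927 with the block).

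**Figure D5:**
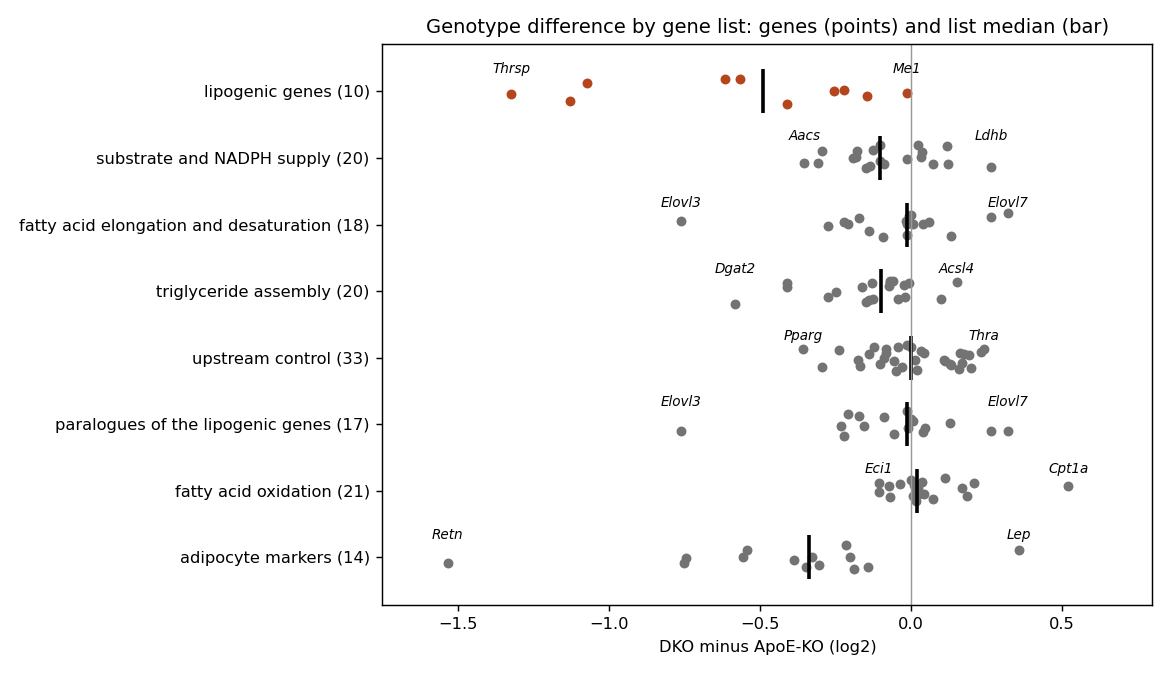
Difference DKO minus ApoE-KO (horizontal axis, log2) of each measured gene (points) and the median (bar) in the lipogenic genes and the lists around them, with the number of genes in brackets and the lowest and highest gene of each list named. The lipogenic median is -0.49, the adipocyte median -0.34, and the other 6 medians lie between -0.10 and 0.02.

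Among 550 other genes whose levels spanned at least 1, the 8 that followed the mean lipogenic profile most closely over the 6 arrays were P4ha3, a collagen prolyl hydroxylase subunit (r = 0.92), Retn (r = 0.92), Cadm3, a cell adhesion gene (r = 0.89), Thbs1, which encodes thrombospondin (r = 0.86), Mmp3, a matrix protease (r = 0.86), Retnla, a resistin-like secreted protein (r = 0.85), Gpd1, the glycerol-3-phosphate dehydrogenase (r = 0.85), and Sfrp4, a secreted Wnt antagonist (r = 0.85). P4ha3 read 7.26, 7.37 and 7.11 in DKO, against 8.67, 7.82 and 7.64 in ApoE-KO, with ApoE-KO replicate 1 the highest array, as for Fasn and Acaca. Gpd1, which makes the glycerol backbone of triglycerides, read 9.83, 10.502 and 10.06 in DKO, against 10.80, 10.80 and 11.05 in ApoE-KO. The profile contains the genotype difference on which the members were selected, and each of the 8 genes had a lower group mean in DKO. Their correlations are therefore descriptions over 6 arrays only.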

How the data were processed

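RNA from 6 aorta samples was processed with the Ambion whole-transcript kit and hybridised after biotin labelling, 1 Affymetrix array per sample, per the labels' protocols. The authors deposited log2 values for 25254 probe sets. The submitters' processing notes list RMA, Partek and build mm9, with no version. The series text speaks of array batches, but no label names one, and no source used here says whether a batch term was removed. Medians of the arrays ran from 8.01 to 8.02; with 3 arrays in each group, precision rests on that number. The platform annotation names 1 gene for 21496 probe sets, several for 1565 and none for 2193.

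All probe sets were fitted with limma 3.58.1 in R 4.3.3 (lmFit, eBayes with intensity trend, DKO minus ApoE-KO, two-sided) and Benjamini-Hochberg adjusted at 0.05, without a filter. Deviations from the group means correlated between same-numbered arrays (r = 0.60, 0.50 and 0.64 across probe sets). The labels do not say what a number marks, so treating the numbers as pairs is an assumption, and the blocked values are given beside the unpaired ones. The smallest p of an exact permutation test with 3 arrays a group is 0.1. The code was tested on simulated data: under limma's own variance model false calls stayed near the nominal share, but with the spreads of these arrays they exceeded it, more so with the block, so a call at 0.05 is less strict than the number says.

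Members and lists were chosen with earlier results of these data known. Named are all members, the list genes marked for naming in the design, each list's lowest and highest, and the 8 genes most like the members; Cidec, Kdr, Ppargc1a, Dio2 and Fga were named after their values were seen. Of 195 list genes 180 have their own probe set, and the others are not analysed here. Promoter windows come from RefSeq (GRCm38.p6), not the build in the notes. Alternatives were the block, moderation, a filter at the 40th percentile of mean level, normalization, probe set choice, array weights and left-out arrays. Levels relative to adipocyte markers, leaving out both arrays numbered 1 or 2, and the block without both arrays of any 1 number were chosen after seeing the data.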

Additional observations from a re-analysis of the deposited data

How the results depend on the processing

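Under 17 alternatives 9 or 10 of the 10 lipogenic genes were lower in DKO, except relative to the adipocyte marker mean, chosen after seeing the data, where 5 were and the median was -0.068. Under the others it ran from -0.53 to -0.43. With the replicate block 44 probe sets and 2 members (Pcx and Thrsp) were called. With the replicate block but without both replicate 1 arrays these counts were 415 and 5, without both replicate 2 arrays 0 and 0, and without both replicate 3 arrays 48 and 2, all 3 settings chosen after seeing the data. An unmoderated linear model with the replicate block called 0. Without single arrays, unpaired calls ran from 0 to 8 (8 without DKO replicate 3) and members called from 0 to 0. The difference of Me1 turned to 0.017 with a gene's probe sets averaged and 0.0069 without both replicate 3 arrays, with or without the replicate block; without single arrays it ran from -0.18 to 0.14, with 0.018 and 0.12 among the values, and that of Scd1 from -0.32 to 0.061. Repeated quantile normalization gave list medians of -0.117 for triglyceride assembly, -0.055 for upstream control and 0.041 for endothelium. Triglyceride assembly had -0.0709 without both replicate 2 and -0.0713 without both replicate 3 arrays, upstream control -0.0542 without both replicate 3, and the paralogues -0.105 without both replicate 1 arrays, the same with the block. Without single arrays medians ran from -0.0848 to 0.0098 (elongation and desaturation), -0.134 to -0.0816 (triglyceride assembly), -0.048 to 0.031 (upstream control), -0.0956 to -0.0157 (paralogues), -0.54 to -0.15 (adipocyte), 0.013 to 0.12 (smooth muscle), -0.044 to 0.22 (endothelium), -0.147 to -0.025 (substrate and NADPH supply), -0.32 to 0.0028 (brown fat), -0.25 to 0.21 (macrophage), -0.105 to -0.048 (liver), -0.014 to 0.088 (fatty acid oxidation) and -1.07 to 0.59 (lung epithelium). The causes were not tested.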
